A study of Rattus norvegicus with 6 samples.

Results

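DNA replication and the supply of its nucleotides were followed through 40 listed genes in mesenchymal stem cells (MSCs) of rat bone marrow, which can form bone, cartilage and fat. Members were found by gene name from a list that was drawn up with earlier results of these data known. The rule uses measured values only to choose among rows that share a name, taking the highest mean FPKM. Of the 40, 39 had a row among the 33589 rows of the expression table, each name in 1 row, and E2f1 was not analysed here. Cells of the stiff group had spent 48 h in an SA hydrogel of 18 kPa, and cells of the soft group had spent 48 h in an SA hydrogel of 2 kPa, with 3 libraries of polyA RNA per group. Both groups shared the same low-glucose medium with fetal bovine serum and antibiotics, and cells were taken out of the gel before library preparation. The series text describes quadruplicate sequencing, whereas the expression table holds 3 libraries per group, all of them analysed here. No label says whether a replicate was a separate animal or culture, so the p-values speak of the spread among these 6 libraries alone, and that spread may be technical.

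Before a cell copies its DNA, the origin recognition complex, Cdc6 and Cdt1 load the ring-shaped MCM helicase onto origins, a step called licensing. Cdc45 and the GINS complex then join the ring to make the active helicase, polymerases copy both strands on the Pcna clamp, and a set of enzymes keeps deoxynucleotides in supply. Many of these genes are known targets of E2F transcription factors at the entry into S phase. In MSC cultures their RNA is used as a sign of cycling cells, and in bulk RNA a larger share of cycling cells and more RNA per cell cannot be told apart.

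The libraries held between 14966354 and 16711527 reads, recovered from FPKM (fragments per kilobase of gene, scaled for library depth). Over all genes, 128 of 12713 tested were higher in stiff gel (1.01%) and 54 were lower (0.425%) at a Benjamini-Hochberg adjusted p under 0.05 in limma on log2(FPKM + 1). Scaling all libraries to the same FPKM sum made the split 88 higher and 68 lower, quantile normalization made it 103 and 68, and voom on the recovered reads made it 190 and 127. Without stiff replicate 1, 2 or 3 the total was 26, 46 and 37 calls, and without soft replicate 2 or 3 it was 54 and 38. Soft replicate 1 stood apart on the first principal component and carried a mitochondrial read share of 2.15%, while the remaining 5 libraries ranged from 2.85% to 3.33%. Leaving it out gave 159 calls. Genes listed as MSC markers differed widely in level. Col1a1, a collagen I chain, was at 3579.3 ± 314.3 FPKM in stiff gel and 3061.5 ± 372.5 FPKM in soft gel. Col1a2, the other chain, was at 693.8 ± 291.5 FPKM in stiff gel and 802.6 ± 418.0 FPKM in soft gel (SD, n = 3 each). In mean level the surface markers Thy1, Itgb1, Pdgfra, Cd44 and Pdgfrb came next, at 598.8, 299.6, 254.5, 131.5 and 120.6 FPKM in stiff gel. In soft gel they averaged 499.2, 264.8, 259.6, 127.6 and 126.9 FPKM. Limma called 0 of the 10 MSC markers. The surface markers Eng, Nt5e and Vcam1, named after their values were seen, were the lowest of the 10. They averaged 16.6, 16.1 and 16.5 FPKM in stiff gel and 16.4, 14.4 and 16.4 FPKM in soft gel. The 10 MSC marker levels summed to between 5063.8 and 6245.6 FPKM in stiff gel and between 4661.2 and 6086.1 FPKM in soft gel. Macrophage and leukocyte markers were present too, with 9 of 10 listed genes measured and summed levels between 364.4 and 393.0 FPKM in stiff gel and between 414.6 and 421.1 FPKM in soft gel. Of those 9, Cd68, a lysosomal protein of macrophages, was lower in stiff gel (27.7 ± 1.52 FPKM, against 40.4 ± 3.47 FPKM in soft gel; SD, n = 3 each), Cd53 was also lower and Adgre1 was higher, by the same limma test. Their part in the replication results was not tested. The 4 endothelial markers measured summed to between 0.416 and 0.488 FPKM in stiff gel and between 0.410 and 0.738 FPKM in soft gel. Most of that was Vwf, at 0.235 FPKM in stiff gel and 0.275 FPKM in soft gel, and Tek, at 0.210 FPKM in stiff gel and 0.223 FPKM in soft gel. Of the 4 erythroid genes measured, Alas2 averaged 0.169 FPKM in stiff gel and 0.185 FPKM in soft gel, and the globin genes Hba-a1, Hba-a2 and Hbb were listed at 0 in every library.

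Most replication genes had higher mean FPKM in stiff gel, and the 2 that passed the test, Rrm2 and Tk1, both serve nucleotide supply. FPKM summed over the 39 members came to 260.8, 264.3 and 279.8 in stiff replicates 1 to 3, against 225.3, 227.5 and 228.7 in soft replicates 1 to 3. The sum was 1.18 times as high in stiff gel, and the groups did not overlap. Without Rrm2 and Tk1 it was 1.14 times as high. FPKM summed over all genes were also higher in stiff gel, at 467372, 468966 and 478304 in stiff replicates 1 to 3. They were 452787, 456786 and 457306 in soft replicates 1 to 3, and ratios of summed FPKM in this text include that offset. The highest of the 6 libraries was a stiff one for 34 of the 39 members, and the lowest was a soft one for 32. Stiff replicate 3 was the highest library for 18 members and soft replicate 1 the lowest for 20.

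Of the 39 members, 37 averaged at least 1 FPKM over the 6 libraries and entered the test across all genes. Among these 37, 2 rose (5.41%, against 1.01% of all tested genes) and 0 fell. All 3 stiff libraries lay above all 3 soft ones in 16 of the 37, against 11.7% of all tested genes, and the reverse order occurred in 0, against 10.9%. Log2 fold changes of FPKM + 1 were above 0 in 34 of 37, with a median of 0.19 and a range from -0.03 to 0.70, while 50.4% of all tested genes lay above 0 and their median was 0.00. At an unadjusted p under 0.05, 14 of the 37 were higher in stiff gel, against 8.46% of all tested genes, and 0 were lower, against 6.95%. Voom on the recovered reads also called 2 members. Scaled to equal FPKM sums, the members' median was 0.14 with 31 of 37 above 0, while the median of all tested genes was -0.04. The 95% interval of a member's log2 fold change reached between 0.15 and 0.42 to either side.

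**Figure D1:**
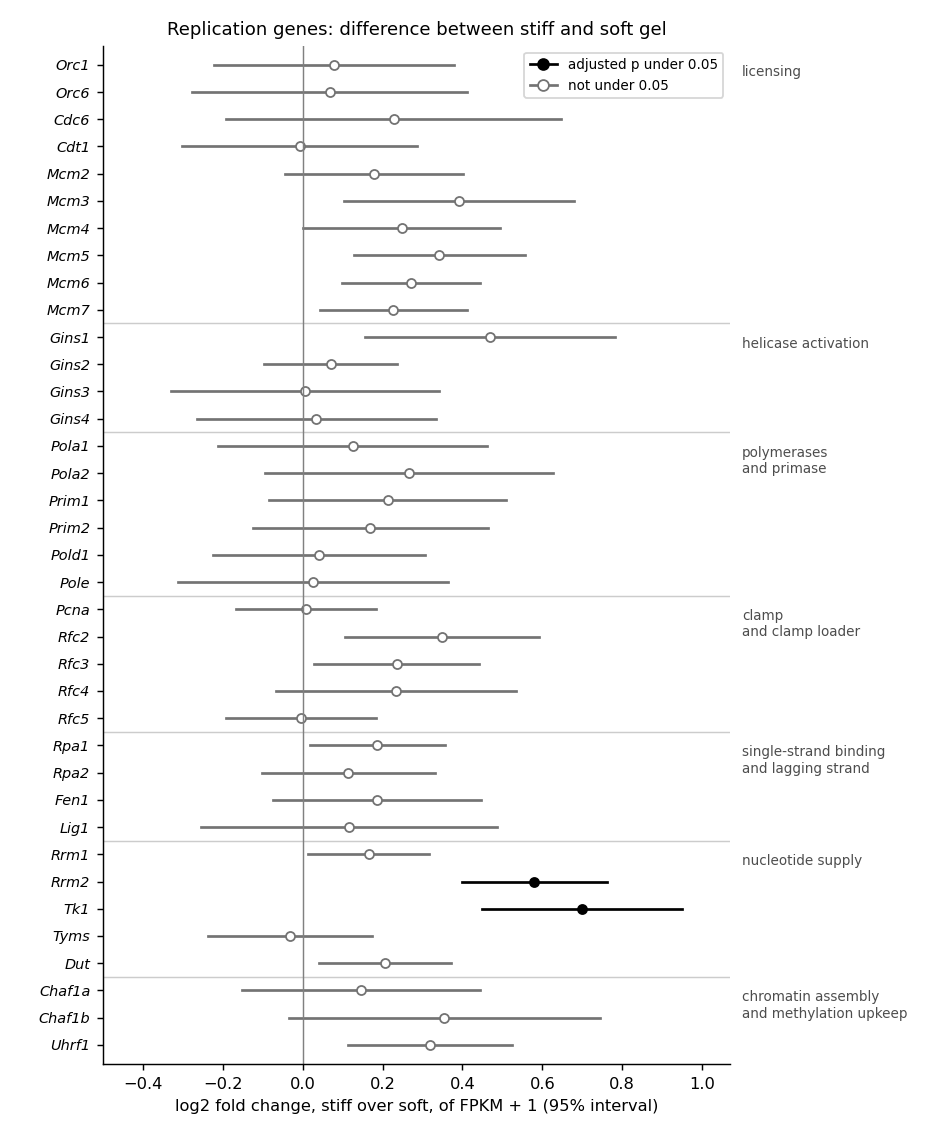
Log2 fold change (stiff over soft, of FPKM + 1) of the 37 tested members by role, with 95% intervals from limma. Rrm2 at 0.58 and Tk1 at 0.70 are filled as the members that passed the test, and most of the others lie right of 0 with intervals that reach or come near it.

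Nucleotide supply held both members that rose. Rrm2 encodes the small subunit of ribonucleotide reductase, the enzyme that turns ribonucleotides into deoxyribonucleotides, and its RNA accumulates in S phase. Rrm2 was at 23.4, 21.1 and 21.8 FPKM in stiff replicates 1 to 3, against 15.7, 14.4 and 13.3 FPKM in soft replicates 1 to 3. Every stiff library exceeded every soft one, and the means differed 1.53-fold (log2 fold change 0.58, SE 0.0772, limma with Benjamini-Hochberg adjusted p = 0.0205). These levels rested on 400 to 429 reads per stiff library and 254 to 310 reads per soft library. The table places Rrm2 (ENSRNOG00000054286) on chromosome 6 from 43884678 to 43889515, in a genome build that it does not name.

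Tk1 encodes the cytosolic thymidine kinase, which salvages thymidine for DNA synthesis and is also a cell-cycle regulated gene. Tk1 was at 13.4, 11.8 and 14.4 FPKM in stiff replicates 1 to 3, against 8.92, 7.38 and 7.01 FPKM in soft replicates 1 to 3. The lowest stiff library lay above the highest soft one, and the difference was the largest of the tested members on the log2 scale (1.70-fold, log2 fold change 0.70, SE 0.107, limma with Benjamini-Hochberg adjusted p = 0.0311). Ordered by mean level, Tk1 was in place 4 of the 39 members in stiff gel and place 8 in soft gel. The table places Tk1 (ENSRNOG00000047314) on chromosome 10 from 106817601 to 106828884, with the same unnamed build. Without soft replicate 1 both calls held, and without any 1 of the other 5 libraries both were lost (adjusted p from 0.0612 to 0.0993 for Rrm2 and from 0.0612 to 0.128 for Tk1, in limma with Benjamini-Hochberg adjustment). The call of Tk1 also ended without the level filter (adjusted p = 0.0856) and without the intensity trend in limma (adjusted p = 0.0515).

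The other 3 genes of nucleotide supply did not pass. Rrm1, the large subunit that pairs with Rrm2, was at 12.4, 13.0 and 13.4 FPKM in stiff replicates 1 to 3, against 10.8, 11.7 and 11.8 FPKM in soft replicates 1 to 3. Those groups did not overlap, but the distance was small (1.13-fold, limma with Benjamini-Hochberg adjusted p = 0.293). Dut, which removes dUTP so that uracil is not built into DNA, averaged 23.8 ± 1.17 FPKM in stiff gel and 20.5 ± 1.43 FPKM in soft gel (SD, n = 3 each), also without overlap (adjusted p = 0.230, limma with Benjamini-Hochberg adjustment). Tyms, the thymidylate synthase that makes dTMP by the de novo route, was at 6.93, 8.24 and 7.61 FPKM in stiff replicates 1 to 3, against 8.29, 7.14 and 7.91 FPKM in soft replicates 1 to 3. Its groups overlapped fully, with a log2 fold change of -0.03 and a 95% interval from -0.24 to 0.17. Within a library, the level of Rrm2 per unit of Rrm1 was 1.89, 1.62 and 1.64 in stiff replicates 1 to 3 and 1.45, 1.23 and 1.13 in soft replicates 1 to 3. The ratio of the salvage gene Tk1 to the de novo gene Tyms was 1.94, 1.43 and 1.90 in stiff replicates 1 to 3 and 1.08, 1.03 and 0.886 in soft replicates 1 to 3. Both ratios separated the groups. They were chosen after the values were seen and were given no test.

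**Figure D2:**
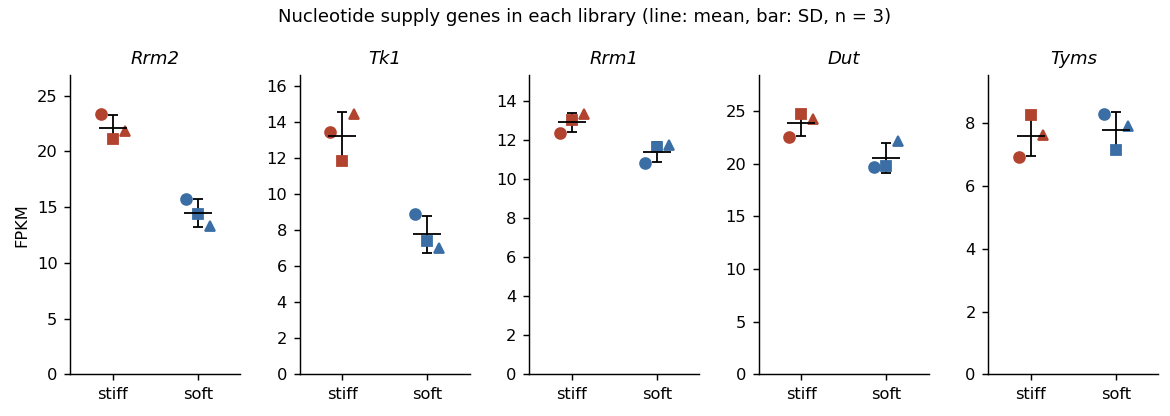
FPKM of the 5 nucleotide supply genes in each library, with circles, squares and triangles for replicates 1, 2 and 3, the mean as a line and the SD as a bar. Stiff and soft libraries are apart for Rrm2, Tk1, Rrm1 and Dut, whereas those of Tyms lie across the same range, from 6.93 to 8.29 FPKM.

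Among the 10 licensing genes 0 passed limma's test or voom. Of them, 5 had an unadjusted p under 0.05 in limma, all higher in stiff gel, against 8.46% of all tested genes. The 6 subunits of the MCM ring all had higher means in stiff gel, and their fitted differences kept that sign in every setting tried. Summed over Mcm2 to Mcm7, the FPKM were 49.2, 48.3 and 52.2 in stiff replicates 1 to 3, against 41.8, 41.2 and 39.3 in soft replicates 1 to 3, 1.22 times as high in stiff gel. Mcm3 was at 5.98, 6.44 and 5.64 FPKM in stiff replicates 1 to 3, against 5.34, 3.69 and 4.13 FPKM in soft replicates 1 to 3 (log2 fold change 0.39, limma with Benjamini-Hochberg adjusted p = 0.201). Mcm5 was at 4.73, 4.42 and 4.93 FPKM in stiff replicates 1 to 3, against 3.47, 3.84 and 3.19 FPKM in soft replicates 1 to 3 (0.34, limma with Benjamini-Hochberg adjusted p = 0.142). In Mcm3, Mcm4, Mcm5, Mcm6 and Mcm7 every stiff library lay above every soft one, as in 11.7% of all tested genes. In Mcm2 the groups overlapped. Mcm4, Mcm6 and Mcm7 had log2 fold changes of 0.25, 0.27 and 0.23, and Mcm2, at 10.2 ± 0.580 FPKM in stiff gel and 8.96 ± 1.08 FPKM in soft gel (SD, n = 3 each), had 0.18. Although the protein ring holds the subunits in equal number, their RNA levels per length spread from 4.69 FPKM for Mcm5 to 11.7 FPKM for Mcm7 in stiff gel and from 3.50 FPKM for Mcm5 to 9.85 FPKM for Mcm7 in soft gel. Mcm7 carries the microRNA gene Mir25 inside its span on the same strand, listed at 2.43 FPKM, so its own value is uncertain.

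No difference beyond the spread of the libraries was detected in the loaders of the ring, all of which overlapped between the groups. Cdt1, which brings the ring to the origin, averaged 5.01 ± 0.942 FPKM in stiff gel and 4.99 ± 0.290 FPKM in soft gel (SD, n = 3 each), with a 95% interval of the log2 fold change from -0.30 to 0.29. Cdc6, an ATPase that works with it, was at 1.01, 1.01 and 1.65 FPKM in stiff replicates 1 to 3, against 0.723, 1.22 and 0.746 FPKM in soft replicates 1 to 3, so that the groups overlapped. Orc1, the origin complex subunit whose level follows the cell cycle, had a log2 fold change of 0.08, and Orc6 had 0.07. Cdc6 and Orc1 rested on 37 to 84 and 49 to 75 reads per library, and their intervals were correspondingly wide.

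**Figure D3:**
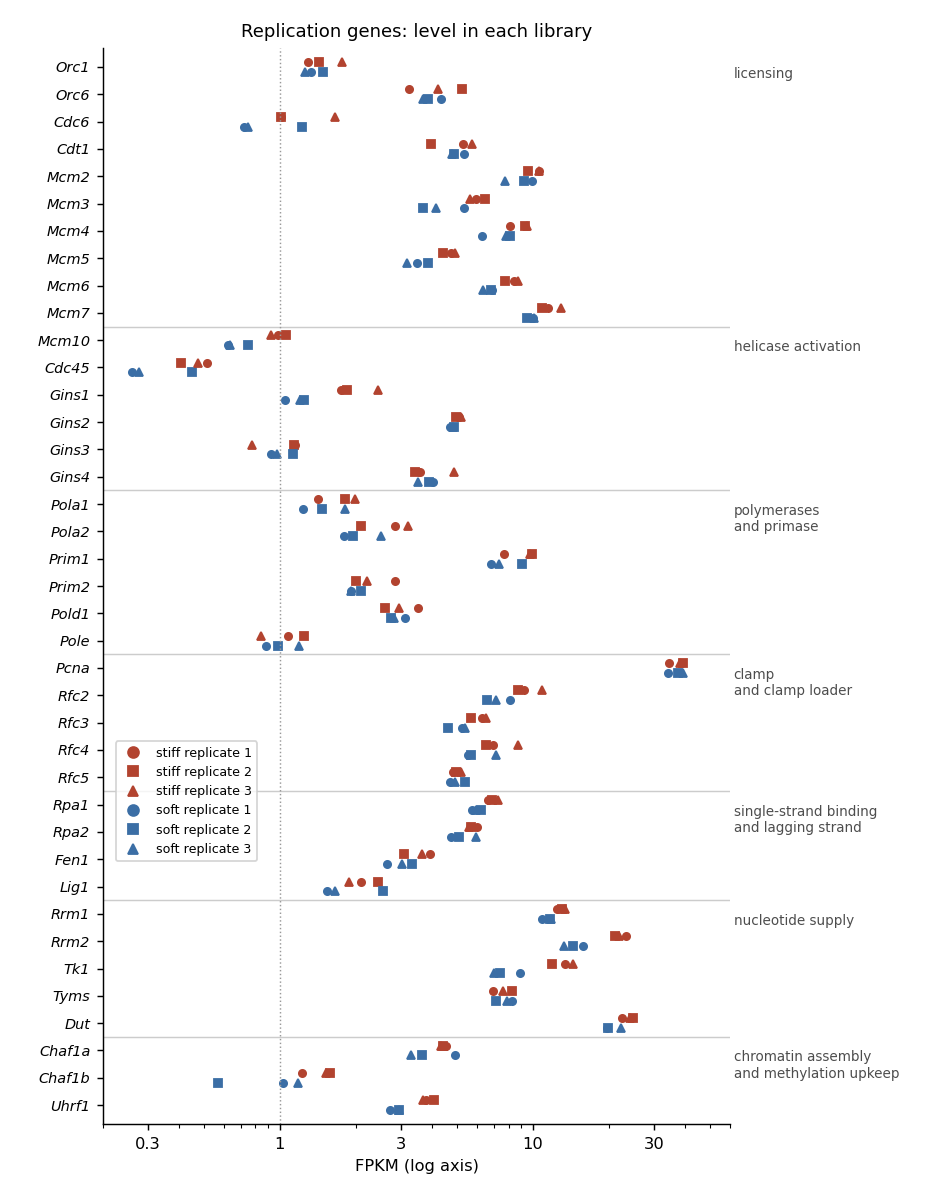
FPKM of the 39 members in each library on a log axis, grouped by role, with stiff libraries above soft ones for each gene and a dotted line at the level filter of 1 FPKM. Pcna lies highest, at 34.1 to 39.2 FPKM, and Cdc45 lowest, at 0.261 to 0.515 FPKM.

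The genes that turn the loaded ring into an active helicase ran from Gins2, in place 18 of the 39 by level in stiff gel and 19 in soft gel, to Mcm10 and Cdc45, the least abundant members in both groups. Gins1, a GINS subunit, was at 1.75, 1.84 and 2.44 FPKM in stiff replicates 1 to 3, against 1.05, 1.25 and 1.20 FPKM in soft replicates 1 to 3. The groups were apart and the means differed 1.72-fold, but Gins1 rested on 28 to 44 reads per stiff library and 19 to 22 per soft library and did not pass (log2 fold change 0.47, limma with Benjamini-Hochberg adjusted p = 0.168). The other GINS subunits had log2 fold changes of 0.07 for Gins2, 0.01 for Gins3 and 0.03 for Gins4. Of these, Gins2 alone had all stiff libraries above all soft ones, at 5.11, 4.96 and 5.20 FPKM in stiff replicates 1 to 3, against 4.70, 4.88 and 4.82 FPKM in soft replicates 1 to 3. Within a library, the level of Gins1 per unit of Gins2 was 0.342, 0.371 and 0.469 in stiff replicates 1 to 3 and 0.223, 0.256 and 0.248 in soft replicates 1 to 3, a ratio also chosen after the values were seen. Mcm10 and Cdc45 fell under the level filter and were not tested. Mcm10, which helps the helicase start, was at 0.985, 1.06 and 0.924 FPKM in stiff replicates 1 to 3, against 0.626, 0.750 and 0.634 FPKM in soft replicates 1 to 3, without overlap. Cdc45 was at 0.515, 0.407 and 0.477 FPKM in stiff replicates 1 to 3, against 0.261, 0.449 and 0.279 FPKM in soft replicates 1 to 3, with overlap.

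The 6 polymerase and primase genes overlapped between the groups in every case. By limma 0 of them passed, and voom called 0. In limma 0 had a p under 0.05 before adjustment, against 8.46% of all tested genes higher in stiff gel and 6.95% lower. Their log2 fold changes ran from 0.03 for Pole, the catalytic subunit of the leading-strand polymerase, to 0.27 for Pola2, a subunit of the polymerase that lays down primers with primase, with Pola1 at 0.13 and Prim2 at 0.17. Prim1, the catalytic primase subunit, was the most abundant of them, at 9.11 ± 1.22 FPKM in stiff gel and 7.72 ± 1.16 FPKM in soft gel (SD, n = 3 each). Pold1, the catalytic subunit of the lagging-strand polymerase, averaged 3.03 ± 0.456 FPKM in stiff gel and 2.90 ± 0.206 FPKM in soft gel. Pola2 overlaps Cdc42ep2 on the same strand, which was at 1.89 FPKM, so its value is uncertain.

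Pcna, the sliding clamp that holds polymerases on DNA and a common marker of cycling cells, was the most abundant member, and no difference was detected in it. It was at 34.3, 39.0 and 38.0 FPKM in stiff replicates 1 to 3, against 34.1, 37.5 and 39.2 FPKM in soft replicates 1 to 3. The libraries of both groups covered the same range, and the 95% interval of the log2 fold change, from -0.17 to 0.18, was among the narrower ones. Of the clamp loader subunits, Rfc2 was at 9.19, 8.72 and 10.8 FPKM in stiff replicates 1 to 3, against 8.12, 6.60 and 7.17 FPKM in soft replicates 1 to 3 (log2 fold change 0.35, limma with Benjamini-Hochberg adjusted p = 0.183). Rfc3 was at 6.26, 5.67 and 6.54 FPKM in stiff replicates 1 to 3, against 5.23, 4.61 and 5.40 FPKM in soft replicates 1 to 3 (log2 fold change 0.24). Rfc2 and Rfc3 separated the groups, and Rfc4 and Rfc5 did not. Rfc5 had a log2 fold change of -0.00 with an interval from -0.19 to 0.18. The summed clamp and clamp loader level was 1.08 times as high in stiff gel, the smallest such ratio among the 7 functional groups, while that of nucleotide supply, at 1.29, was the largest. Such sums follow the most abundant genes, and Pcna made up 37.1 of 65.2 FPKM of the clamp sum in stiff gel. Median log2 fold changes of tested members gave another order. They were 0.23 for the clamp group and 0.21 for nucleotide supply, with chromatin assembly highest (0.32) and helicase activation lowest (0.05).

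**Figure D4:**
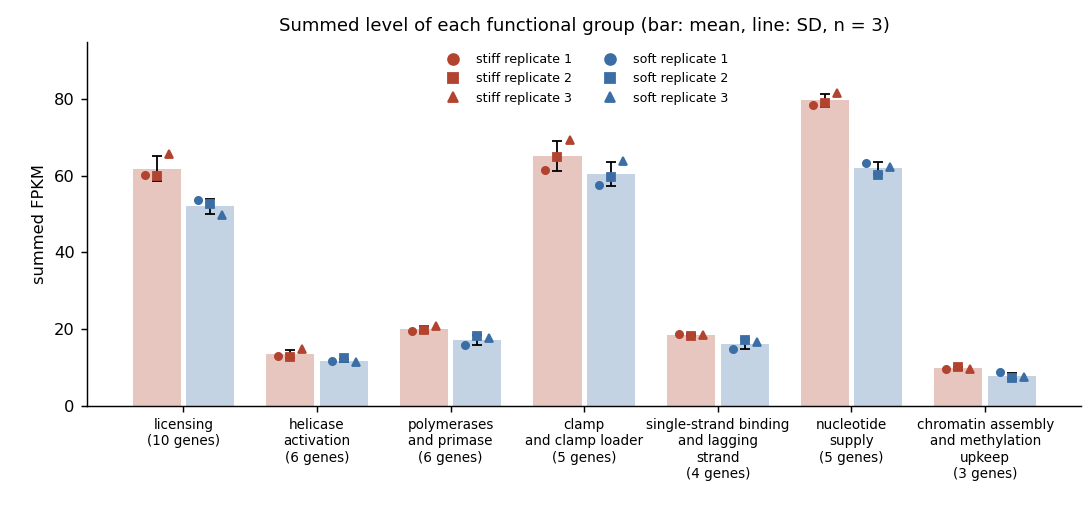
FPKM summed over the members of each functional group in each library, with bars for group means and lines for the SD of 3 libraries. Nucleotide supply sums lie between 78.6 and 81.5 FPKM in stiff gel and between 60.3 and 63.4 FPKM in soft gel, and clamp and clamp loader sums overlap.

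Genes that protect single-stranded DNA and finish the lagging strand had log2 fold changes between 0.11 and 0.19, and 0 passed limma's test or voom. Of these 4 genes, 1 had an unadjusted p under 0.05 in limma, higher in stiff gel, against 8.46% of all tested genes. Rpa1, the large subunit of the single-strand binding protein, was at 6.61, 6.87 and 7.29 FPKM in stiff replicates 1 to 3, against 5.76, 6.20 and 5.93 FPKM in soft replicates 1 to 3, without overlap (limma with Benjamini-Hochberg adjusted p = 0.287). The groups overlapped in Rpa2, in Fen1, which trims the flaps of lagging-strand fragments, and in Lig1, which joins them.

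Chromatin assembly behind the fork is served by the CAF-1 subunits Chaf1a and Chaf1b, and DNA methylation is kept up through Uhrf1, which brings the maintenance methyltransferase to new DNA. Uhrf1 was at 3.76, 4.08 and 3.67 FPKM in stiff replicates 1 to 3, against 2.72, 2.96 and 2.95 FPKM in soft replicates 1 to 3. The groups were apart, yet the gene did not pass over all genes (1.33-fold, log2 fold change 0.32, SE 0.0873, limma with Benjamini-Hochberg adjusted p = 0.154). Chaf1b was at 1.22, 1.58 and 1.53 FPKM in stiff replicates 1 to 3, against 1.03, 0.570 and 1.18 FPKM in soft replicates 1 to 3, with the lowest stiff library just above the highest soft one. Chaf1b rested on as few as 19 reads in a library, and 0 of these 3 genes passed limma's test or voom. Of the 3, 1 had an unadjusted p under 0.05 in limma, higher in stiff gel, against 8.46% of all tested genes. Chaf1a averaged 4.42 ± 0.114 FPKM in stiff gel and 3.94 ± 0.849 FPKM in soft gel (SD, n = 3 each), and its groups overlapped.

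Promoter sequences were examined because these genes are textbook E2F targets that share a control step. RefSeq sequences of build GRCr8, from 250 bases before to 50 bases after the start of the gene, were matched by symbol for 34 of the 39 members, all on the chromosome given by the expression table. The E2F letters searched on both strands were TTTCCCGC, TTTCGCGC, TTTGCCGC and TTTGGCGC. They were found in 14 of the 34 promoters (41.2%), against 2.25% of 27457 promoters of the same length and 4.26% of those of 8661 tested genes. In 12 of the 14 a match began within 60 bases of the start. CCAAT, the box bound by NF-Y, was found in 61.8% of members and 37.7% of all promoters, and TTTGAA, the CHR element of late cell-cycle genes, in 5.88% of members and 18.1% of all promoters. The CHR share among promoters of tested genes was 11.2%. Of 40 other replication genes with a promoter, 16 held E2F letters, close to the members' share. CCAAT was also found in 16 of these 40 (40%), nearer the share of all promoters than that of the members. The CHR letters were found in 22.5% of them. Of 20 mitotic genes with a promoter, 1 held E2F letters, 16 CCAAT and 14 the CHR letters. E2F matches can overlap each other on opposite strands, and in Mcm7 an E2F match shares bases with a CCAAT.

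The promoters shown are those of the 6 members that hold E2F letters and had all stiff libraries above the soft ones, Mcm3, Mcm5, Mcm6, Mcm7, Gins1 and Rfc3, and that of Tk1, the member that rose and was matched to a promoter. Each is written 5′ to 3′ on the strand of the gene, and capitals mark the E2F letters.
Mcm3 (GRCr8 chr9:30733697-30733996, minus strand): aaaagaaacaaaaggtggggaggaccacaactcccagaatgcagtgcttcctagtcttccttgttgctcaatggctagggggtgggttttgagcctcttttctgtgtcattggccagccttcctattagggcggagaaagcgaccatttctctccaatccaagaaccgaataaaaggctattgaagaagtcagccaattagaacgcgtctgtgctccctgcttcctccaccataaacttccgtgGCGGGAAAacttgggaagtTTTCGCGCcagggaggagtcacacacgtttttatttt
Mcm5 (GRCr8 chr19:13488563-13488862, plus strand): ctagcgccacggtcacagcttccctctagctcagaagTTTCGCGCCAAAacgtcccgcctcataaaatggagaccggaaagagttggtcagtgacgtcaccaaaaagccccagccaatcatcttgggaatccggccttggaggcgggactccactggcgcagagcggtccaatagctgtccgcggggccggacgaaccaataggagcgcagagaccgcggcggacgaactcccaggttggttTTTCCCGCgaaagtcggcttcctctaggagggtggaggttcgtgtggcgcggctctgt
Mcm6 (GRCr8 chr13:42404303-42404602, minus strand): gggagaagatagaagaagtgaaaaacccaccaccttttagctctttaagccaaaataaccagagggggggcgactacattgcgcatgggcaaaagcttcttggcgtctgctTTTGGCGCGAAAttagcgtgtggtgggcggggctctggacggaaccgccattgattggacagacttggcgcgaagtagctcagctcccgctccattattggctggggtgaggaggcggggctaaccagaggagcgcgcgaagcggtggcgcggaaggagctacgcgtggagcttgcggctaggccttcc
Mcm7 (GRCr8 chr12:22163129-22163428, minus strand): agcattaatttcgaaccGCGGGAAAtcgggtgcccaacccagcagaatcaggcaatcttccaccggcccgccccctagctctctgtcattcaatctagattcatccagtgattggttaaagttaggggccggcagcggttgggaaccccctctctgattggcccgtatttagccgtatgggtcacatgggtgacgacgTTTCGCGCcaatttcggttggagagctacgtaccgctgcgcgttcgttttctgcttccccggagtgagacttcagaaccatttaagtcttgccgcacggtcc
Gins1 (GRCr8 chr3:160184670-160184969, plus strand): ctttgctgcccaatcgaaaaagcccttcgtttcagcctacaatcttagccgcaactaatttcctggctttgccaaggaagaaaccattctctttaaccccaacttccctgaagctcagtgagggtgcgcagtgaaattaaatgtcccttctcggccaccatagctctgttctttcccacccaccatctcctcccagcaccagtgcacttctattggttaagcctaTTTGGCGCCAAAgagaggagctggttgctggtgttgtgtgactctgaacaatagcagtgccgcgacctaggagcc
Rfc3 (GRCr8 chr12:5836318-5836617, plus strand): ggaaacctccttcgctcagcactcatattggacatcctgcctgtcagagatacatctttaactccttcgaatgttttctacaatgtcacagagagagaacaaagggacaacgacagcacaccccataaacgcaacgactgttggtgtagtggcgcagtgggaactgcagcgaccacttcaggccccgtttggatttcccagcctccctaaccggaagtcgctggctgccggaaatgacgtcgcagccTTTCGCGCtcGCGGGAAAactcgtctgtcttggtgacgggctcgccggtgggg
Tk1 (GRCr8 chr10:103544728-103545027, minus strand): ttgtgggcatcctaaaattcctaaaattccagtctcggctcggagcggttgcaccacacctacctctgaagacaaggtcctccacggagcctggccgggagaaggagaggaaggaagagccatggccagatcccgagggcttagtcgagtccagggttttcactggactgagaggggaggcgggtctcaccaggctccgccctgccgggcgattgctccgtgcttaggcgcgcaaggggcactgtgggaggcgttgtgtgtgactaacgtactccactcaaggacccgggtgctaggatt
Mcm3 has matches close to its start, beginning 6 bases before and 13 bases after it, and Rfc3 likewise, 3 bases before and 7 bases after. In Gins1, Mcm5 and Mcm6 the longer run of capitals is a pair of overlapping matches, on opposite strands. The window of Tk1 holds none of the E2F, CCAAT or CHR letters, and Rrm2 was not matched to a promoter. The 14 tested members with E2F letters had a median log2 fold change of 0.15 and the 18 tested members without them 0.19, a description with no test. Only the exact letters were searched, so close variants count as absent. The windows of Cdc45, Chaf1a, Mcm10, Pola2 and Rpa1, all counted as without E2F letters, hold TTTGGCGG on either strand, which differs from TTTGGCGC in the last letter.

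Other genes of replication and precursor supply, 49 in the list, had a smaller median. Of 42 tested, 1 rose (2.38%, against 1.01% of all tested genes) and 0 fell (against 0.425%). Log2 fold changes were above 0 in 35 of the 42, against 50.4% of all tested genes, with a median of 0.12. The gene that rose was Asf1b, a histone chaperone that hands histones to CAF-1, at 4.03 ± 0.286 FPKM in stiff gel and 2.52 ± 0.125 FPKM in soft gel (SD, n = 3 each; log2 fold change 0.51, limma with Benjamini-Hochberg adjusted p = 0.0491). Its adjusted p was between 0.0785 and 0.179 when any 1 library was left out, and it was not called after either rescaling or with voom. Of 26 tested E2F, retinoblastoma, cyclin and CDK regulators of S-phase entry, limma called 0 and voom called 0. Before adjustment 3 had a p under 0.05 in limma, all higher in stiff gel (11.5%, against 8.46% of all tested genes), and the list's median was 0.07. Its most abundant genes were Cdkn1a, a CDK inhibitor, at 181.0 ± 11.6 FPKM in stiff gel and 197.4 ± 14.1 FPKM in soft gel, and Cdk4, a G1 kinase, at 120.3 ± 7.88 FPKM in stiff gel and 124.7 ± 5.20 FPKM in soft gel (SD, n = 3 each). The 3 were Ccne1 (cyclin E1, log2 fold change 0.45), E2f6 (0.15) and Cdkn1b (0.14), named after their values were seen.

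Genes of the mitotic list, which mostly act after replication in the same cycle, had a median further from 0 than the replication genes. Of 24 tested, 9 rose (37.5%, against 1.01% of all tested genes) and 0 fell (against 0.425%). All 24 log2 fold changes were above 0, against 50.4% of all tested genes, and their median was 0.50. Plk1, a mitotic kinase, averaged 8.36 ± 0.0954 FPKM in stiff gel and 4.48 ± 0.393 FPKM in soft gel (SD, n = 3 each). Its log2 fold change was 0.77, that of Ccnb1 (cyclin B1) 0.72, that of Cdk1 0.65 and that of Cdc20 0.65, and these 4 were among the 9 that rose. Without stiff replicate 1, 2 or 3, 1, 2 and 1 of the mitotic genes passed, without soft replicate 2 or 3, 3 and 1, and without soft replicate 1, 8. The difference between the lists was not tested. These values come from the same 6 libraries and give no independent support to the replication genes.

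**Figure D5:**
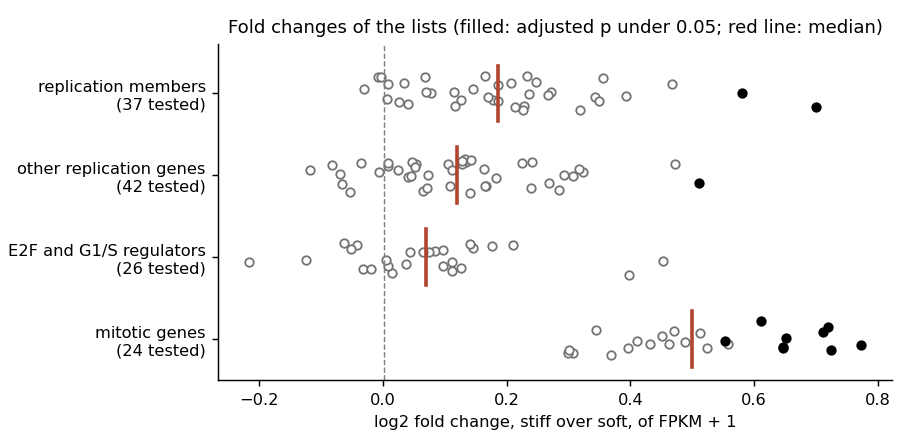
Log2 fold changes (stiff over soft, of FPKM + 1) of the tested genes of 4 lists, with a red line at each median and a dashed line at the median of all tested genes. Medians are 0.19 for the replication members, 0.12 for other replication genes, 0.07 for E2F and G1/S regulators and 0.50 for mitotic genes, and the filled points passed the test.

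Ordered by level, the members ran from Pcna through Dut, Rrm2 and Rrm1 to Mcm10 and Cdc45. Of the 39, 6 averaged 10 FPKM or more over all libraries, 11 lay from 5 to under 10, 20 from 1 to under 5 and 2 under 1. Neighbours in this order mostly could not be ranked, since 36 of the 38 neighbouring pairs had overlapping values over the 6 libraries. The exceptions were Pcna above Dut and Mcm10 above Cdc45. The coefficient of variation between the 3 libraries of a group reached 34.2% in soft gel, in Chaf1b, and 29.8% in stiff gel, in Cdc6, and was lowest in Gins2, at 2.40% in stiff gel and 1.86% in soft gel.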

How the data were processed

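PolyA RNA of 6 libraries was analysed, 3 per group. The authors deposited a table of FPKM per gene, made with Bowtie 0.12.9, Cufflinks 2.1.1 and HTSeq per the submitters' processing notes. The same notes list mm10 and GRCm38, which are builds of the mouse genome, although the identifiers in the table are those of rat and no rat build is named. How strand and multiply mapped reads were handled was not given in the sources used here. The deposited gene length in bases was used as the other per-gene value. Multiplied by gene length, 100% of the FPKM values above 0 were whole numbers of a library's own step (tolerance 0.0001), and these numbers were taken as reads per gene.

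Rows averaging at least 1 FPKM were kept (12713). Stiff was compared with soft on log2(FPKM + 1) with limma 3.58.1 (R 4.3.3), fitting group alone with a trend of variance on intensity, two-sided tests and Benjamini-Hochberg adjustment over all tested genes at 0.05. A fold change on this scale understates that of low genes, and values written as "times" or "-fold" divide the mean FPKM of stiff gel by that of soft gel. With 3 against 3 libraries, an exact permutation test is too coarse for calls and was not used. No pair of libraries within a group was alike within sampling noise (chi-square per degree of freedom 3.71 or more).

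Members and lists were chosen with earlier results of these data known. Every member is reported; from each other list, up to 4 called genes with the smallest p are named or, with none called, the 2 most abundant. Alternatives changed the pseudocount, level filter, scaling, variance trend, gene length trend and replicate block, used voom on recovered reads, or left out each library.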

Additional observations from a re-analysis of the deposited data

How the results depend on the processing

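Of the 37 tested members, 35 were called in no setting and 28 kept their sign in every setting; the other 9 lay near 0. Members called numbered 1 without the level filter, without the intensity trend and with the replicate block, and 0 to 2 when any 1 library was left out. Their median log2 fold change was 0.23 with a filter of 5 FPKM, where 17 members were tested, and 0.14 at equal FPKM sums; in the other settings it moved by less than the spread between replicates. Over all genes, 92 were called without the level filter (20495 tested), 112 without the intensity trend, 317 with voom, 105 with the replicate block and 26 to 159 when any 1 library was left out. Of the other replication genes, 0 were called without the level filter, with a filter of 5 FPKM (where Asf1b was not tested), with equal sums of FPKM, with quantile normalization, with voom, with the replicate block and when any 1 library was left out. Mitotic genes called numbered 16 with voom and 1 to 8 when any 1 library was left out. The cause of these shifts was not tested.

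The labels give both groups replicate numbers 1 to 3 and do not say whether same-numbered libraries are paired. Deviations of same-numbered libraries from their group means correlated at 0.06, 0.12 and -0.08 across genes. Differently numbered pairs ranged from -0.18 to 0.14. With 3 libraries per group these values show no pairing but cannot exclude one. With the replicate block, Rrm2 kept its call (adjusted p = 0.0418 in limma with Benjamini-Hochberg adjustment) and Tk1 lost it (adjusted p = 0.0576).

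Depth limits the low members most. Gins1, Chaf1b and Cdc45 had as few as 19, 19 and 28 reads in a library, and for a gene of 1 kb 3 reads correspond to between 0.179 and 0.201 FPKM.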

Other observations

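Of the other replication genes and the E2F and G1/S regulators, 9 measured genes lay under the level filter and so entered no test. In 5 of the 9 all stiff libraries lay above all soft ones, in 0 the reverse held, and in 4 the groups overlapped. Among all tested genes, which passed the filter, 11.7% had all stiff libraries above all soft ones and 10.9% the reverse. The shares among all genes under the filter were not computed, so the counts of these 9 have no matching rate to be judged against. E2f7 and E2f8, which repress E2F targets late in S phase, were at 0.609 ± 0.0478 and 0.831 ± 0.238 FPKM in stiff gel, against 0.341 ± 0.0725 and 0.454 ± 0.0597 FPKM in soft gel (SD, n = 3 each). Clspn, a mediator of the replication checkpoint, was at 0.487 ± 0.0748 FPKM in stiff gel and 0.320 ± 0.0281 FPKM in soft gel. The helicase genes Mcm8 and Recql4 were at 0.871 ± 0.0855 and 0.821 ± 0.110 FPKM in stiff gel, against 0.659 ± 0.0601 and 0.615 ± 0.0588 FPKM in soft gel. These are the 5 whose groups were apart, named after their values were seen. The 4 with overlap were Dbf4, Ticrr, Atad5 and E2f2, and E2f2, an activating E2F, was at 0.468 ± 0.0679 FPKM in stiff gel and 0.540 ± 0.0732 FPKM in soft gel.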
